A study of Camellia sinensis with 6 samples.

Results

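The genes described here are those of the plant cytoskeleton in tea, Camellia sinensis: tubulins, actins and the proteins that bind or sever their filaments. A gene model was taken if its deposited description holds the Pfam domain PF00091, shared by tubulins and the chloroplast protein FtsZ, or PF00022, the actin domain, or if its deposited protein name holds 1 of 8 terms: microtubule-associated protein, 65-kDa microtubule, katanin, TPX2, actin-depolymerizing, profilin, formin-like or villin. This gave 154 of the 40118 gene models counted, 28 by PF00091, 18 by PF00022 and 108 by name, with none taken by both a domain and a name. Of the members 9 are loci outside the annotated gene models. RNA was sequenced from young shoots of the tea cultivar 'Zhonghuang 2', with 3 libraries in each of 2 groups. All plants were kept for 1 month at 22 °C, in days split into 12 h light and 12 h dark. The high-temperature group, the control, then stood in a climate chamber at 26 °C in the light and 22 °C in the dark and gave green shoots. The low-temperature group stood in another chamber at 18 °C and 14 °C until its leaves yellowed and gave etiolated shoots. As each temperature had its own chamber, effects of chamber and of temperature cannot be told apart. No label ties the libraries of a group to separate plants, and the p-values here measure only the spread among libraries, which could be technical.

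Microtubules are hollow polymers of paired alpha- and beta-tubulin, started from templates that hold gamma-tubulin. In plant cells the microtubules under the plasma membrane guide the enzymes that lay down cellulose, and others form the spindle and the phragmoplast, the scaffold of the new cell wall at division. Actin filaments carry organelles, chloroplasts included, along the cell and direct vesicles to growing walls, and profilins, formins, depolymerizing factors and villins set how fast filaments form, break and bundle. FtsZ, a bacterial relative of tubulin, forms the ring that divides chloroplasts.

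Counts summed to between 15202546 and 15642015 per library. In a principal component analysis of the gene models tested below, the groups lay apart on component 1 (46.4% of the variance). On component 2 (17.1%) high-temperature replicate 2 lay at -55.8 and high-temperature replicates 1 and 3 at 39.2 and 23.8. The low-temperature libraries lay between them, at -9.98 to 2.21. High-temperature replicate 2 had the lowest levels of its group for the most abundant tubulin, actin-depolymerizing factor and profilin genes. Green leaf markers (Rubisco small subunits, Rubisco activase and chlorophyll-binding proteins) summed to 37740 to 51020 CPM (counts scaled to library depth) at high and 33390 to 33610 at low temperature, and 3 rose and 14 fell of 27 tested. Their part in the results below was not tested. Markers of dividing cells summed to 2015 to 2082 CPM at high and 1957 to 2126 CPM at low temperature, with 2 higher and 4 lower of 33 tested and 3 of 45 without a count. By the test described below, 9.27% of all tested gene models were called higher and 9.65% lower. The dividing-cell share called lay near this background, so it is no result about those cells. Markers of pollen gave 2 higher and 0 lower of 11 tested, markers of the root 1 and 1 of 7, of the shoot meristem 2 and 4 of 27, and of xylem 0 and 0 of 11. The root list holds genes named for the Casparian strip and for ROOT HAIR DEFECTIVE 3. The shoot meristem list holds genes named for CLAVATA, WUSCHEL-related homeobox and knotted-1-like proteins, and its share called was also near the background. Whether these names mark their tissue in tea shoots was not tested, so the counts are no check of tissue content. On leaving out 1 library the green leaf genes called lower ranged from 6 (without low-temperature replicate 3) to 18 (without high-temperature replicate 2), with 7, 8 and 9 without low-temperature replicate 2, high-temperature replicate 3 and high-temperature replicate 1. The dividing-cell genes called lower ranged from 1 (without low-temperature replicate 2 or 3) to 5 (without high-temperature replicate 2), and those called higher from 1 to 3.

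The comparison asks which cytoskeleton genes differed between etiolated shoots from the cool chamber and green shoots from the warm one. At low temperature 4 beta-tubulin genes rose, and so did 3 alpha-tubulin genes, each a minor part of the alpha-tubulin pool. The most abundant alpha-tubulin gene was not called. The called genes for microtubule-associated proteins all fell. Among actins Actin-97 rose and Actin-103 fell by edgeR, while DESeq2 called 4 higher and 1 lower, and 52 of 53 tested genes for actin-binding proteins were not called. Of the 154 members 130 were tested, and the other 24 had at most 20 counts in any library, 4 of them none. By the edgeR quasi-likelihood test, with p adjusted over all 26767 tested gene models after Benjamini and Hochberg and a threshold of 0.05, 9 members were higher at low temperature, 14 were lower and 107 were not called. The 23 called are 17.7% of those tested, near the background of 18.9% over all tested gene models, so the count as a whole is no result about the cytoskeleton. In the background 9.27% were called higher and 9.65% lower. The median log2 change, low minus high temperature, was -0.10 over the members and -0.01 over all tested gene models. The libraries of the groups did not overlap for 45 of the 130 tested members, beside 36.5% of all tested gene models. Without low-temperature replicate 2 the calls were 7 higher and 7 lower, and without low-temperature replicate 3 they were 5 higher and 7 lower. Of the 23 called members 11 stayed called whichever library was left out, 5 higher and 6 lower. In these bulk samples, fewer cells of a type and less RNA per cell cannot be told apart.

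**Figure D1:**
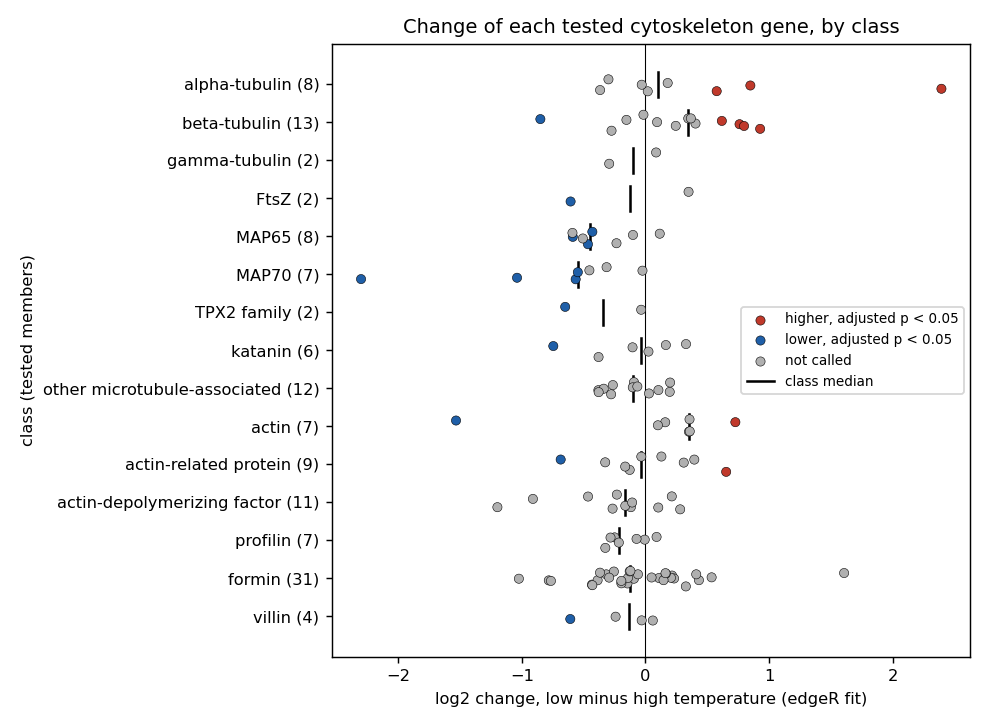
Log2 change (low minus high temperature, edgeR fit) of the tested members by class, with the number tested in brackets; a vertical bar marks the class median and colour marks the call. The tested sucrose synthase is not drawn. Red points lie among alpha-tubulins, beta-tubulins, actins and actin-related proteins, and the MAP65 and MAP70 points lie mostly left of 0.

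Tubulins, the subunits of the microtubule, had 7 higher and 1 lower of 23 tested members, and their median log2 change was 0.18. The calls are 30.4% higher and 4.35% lower, beside 9.27% and 9.65% of all tested gene models. Whether this share differs from that of other classes was not tested. Without low-temperature replicate 3 the tubulin calls were 4 higher and 1 lower, and without high-temperature replicate 2 they were 7 higher and 2 lower. The largest change of any called member was that of an alpha-3 tubulin gene, Cha10g000190 (sequence 10, 1209441 to 1213927, plus strand). Here and below, the values of a group are given in the order of replicates 1 to 3, and levels are in FPKM, fragments per kilobase of coding length and per sequencing depth, as deposited. Cha10g000190 stood at 30.1, 26.8 and 32.2 FPKM at high temperature and at 147.8, 168.5 and 155.6 FPKM at low temperature. All low-temperature libraries lay far above all high-temperature libraries. The gene was 5.26-fold higher (log2 change 2.40 ± 0.14 SE, adjusted p = 4.94e-09), and its change stayed between 2.34 and 2.46 on the log2 scale whichever library was left out.

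This gene is a minor part of the alpha-tubulin transcript pool, which 1 other gene dominates. ChaUn14670.3, an alpha-tubulin gene on unplaced sequence 4383 (31734 to 33396, minus strand), was the most abundant member of all and ranked 44 among all gene models by mean FPKM. It had 2620, 1696 and 2365 FPKM at high and 2129, 2274 and 2402 FPKM at low temperature, so the groups overlapped, and it was not called (log2 change 0.02 ± 0.19 SE, adjusted p = 0.961). Without high-temperature replicate 2 its log2 change was -0.14. ChaUn14670.3 made up 87.8% to 90.1% of all alpha-tubulin FPKM in the high-temperature libraries and 83.9% to 85.1% in the low-temperature libraries. Cha10g000190 made up 1.04%, 1.39% and 1.22% at high and 5.91%, 6.21% and 5.47% at low temperature. It thereby moved from rank 5 among the 9 alpha-tubulin genes in every high-temperature library to rank 2 in every low-temperature library.

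Another 4 tested genes carry the same deposited name, alpha-3 tubulin, and none of them was called; at an unadjusted p under 0.05 none passed either. Of these Cha13g009960 had 84.9, 73.4 and 79.5 FPKM at high and 77.8, 96.3 and 96.9 FPKM at low temperature (log2 change 0.18 ± 0.13 SE, adjusted p = 0.385). The ratio of Cha10g000190 to Cha13g009960 was 0.355, 0.365 and 0.405 at high and 1.901, 1.749 and 1.605 at low temperature. The second gene was the more abundant in every warm library and the first in every cool one. This pair and the other gene pairs compared here were chosen after their values were seen. An exact permutation test on the log2 ratio of each pair whose ratio is given had p = 0.1. That is the smallest p possible with 3 libraries in each group, so the test cannot decide whether the changes of a pair differ. Cha02g014850, the most abundant of the remaining alpha-3 genes, had a mean of 97.2 FPKM at high and 79.5 FPKM at low temperature (log2 change -0.30, adjusted p = 0.176) and passed the threshold, at -0.39 and an adjusted p of 0.0179, on leaving out high-temperature replicate 2. Genes with the same name may be near-identical copies between which the counting could split reads, so their separate values are uncertain to that extent.

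A pair of further alpha-tubulin genes rose by smaller factors. Cha01g018280 (sequence 1, 172737679 to 172740791) had 51.4, 37.5 and 47.5 FPKM at high and 60.6, 70.1 and 73.8 FPKM at low temperature, without overlap, and was 1.49-fold higher (adjusted p = 0.0082). Its adjusted p was 0.059 without low-temperature replicate 3. Cha04g004700, at a lower level, had 8.96, 4.62 and 7.15 FPKM at high and 12.3, 9.73 and 15.4 FPKM at low temperature (1.801-fold higher, log2 change 0.85 ± 0.23 SE, adjusted p = 0.0169). The groups lay close to each other, and the call was lost without low-temperature replicate 1 (adjusted p = 0.055) or replicate 3 (adjusted p = 0.117).

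Beta-tubulins, the other subunit of each pair, had 4 higher and 1 lower of 13 tested members and a median log2 change of 0.35. Transcripts here were spread over several abundant genes. Cha04g014990, a beta-tubulin gene on sequence 4 (137423387 to 137426215, plus strand), had 603, 322 and 533 FPKM at high and 929, 844 and 1017 FPKM at low temperature. High-temperature replicate 2 was the lowest library, and the groups did not overlap without it either. The gene was 1.903-fold higher (log2 change 0.93 ± 0.20 SE, adjusted p = 0.0039), and its log2 change was 0.71 without high-temperature replicate 2, the smallest value on leaving out 1 library. The beta-2 gene ChaUn7523.4 (unplaced sequence 28681, 37875 to 40468, minus strand) was the most abundant beta-tubulin gene over all libraries, with 773, 448 and 703 FPKM at high and 833, 766 and 860 FPKM at low temperature. It was not called (log2 change 0.35 ± 0.19 SE, adjusted p = 0.221), its groups overlapped, and its log2 change was 0.15 without high-temperature replicate 2. It was the leading beta-tubulin gene in every high-temperature library and came after Cha04g014990 in every low-temperature library, the ratio of Cha04g014990 to it going from 0.780, 0.719 and 0.759 to 1.12, 1.10 and 1.18.

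The called beta-2 genes also rose. Cha14g007960 (sequence 14, 54738174 to 54740930) had 513, 305 and 483 FPKM at high and 738, 726 and 753 FPKM at low temperature, a 1.695-fold difference with clearly separated groups (log2 change 0.76 ± 0.18 SE, adjusted p = 0.0079). Cha11g006780, whose gene model is shorter at 720 bases of coding length, had a mean of 144 ± 43.7 FPKM at high and 222 ± 9.03 FPKM at low temperature (SD, n = 3 in each group; 1.54-fold, edgeR adjusted p = 0.0254). The call of Cha11g006780 was lost whichever low-temperature library was left out, with an adjusted p of 0.078, 0.070 or 0.085. Without high-temperature replicate 2 it was called with a log2 change of 0.39, where all libraries gave 0.62.

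Within the beta-6 tubulins a pair of genes moved in opposite directions. Cha04g001210 (sequence 4, 7701486 to 7705181, plus strand) had 28.1, 19.4 and 25.6 FPKM at high and 39.6, 45.1 and 43.0 FPKM at low temperature and was 1.74-fold higher (log2 change 0.80 ± 0.15 SE, adjusted p = 0.0012). Cha13g010920 (sequence 13, 89396760 to 89408607, minus strand) had 28.1, 25.9 and 33.6 FPKM at high and 14.7, 17.4 and 16.7 FPKM at low temperature and was 1.804-fold lower (log2 change -0.85 ± 0.15 SE, adjusted p = 0.00086). Neither gene's groups overlapped, and both calls held whichever library was left out. The ratio of the first gene to the second was 1.00, 0.749 and 0.764 at high and 2.70, 2.59 and 2.58 at low temperature. The remaining 8 tested beta-tubulin genes were not called; among them Cha13g002560 and Cha10g002360, both named beta-1, had means of 267 and 226 FPKM at high and 287 and 301 FPKM at low temperature.

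**Figure D2:**
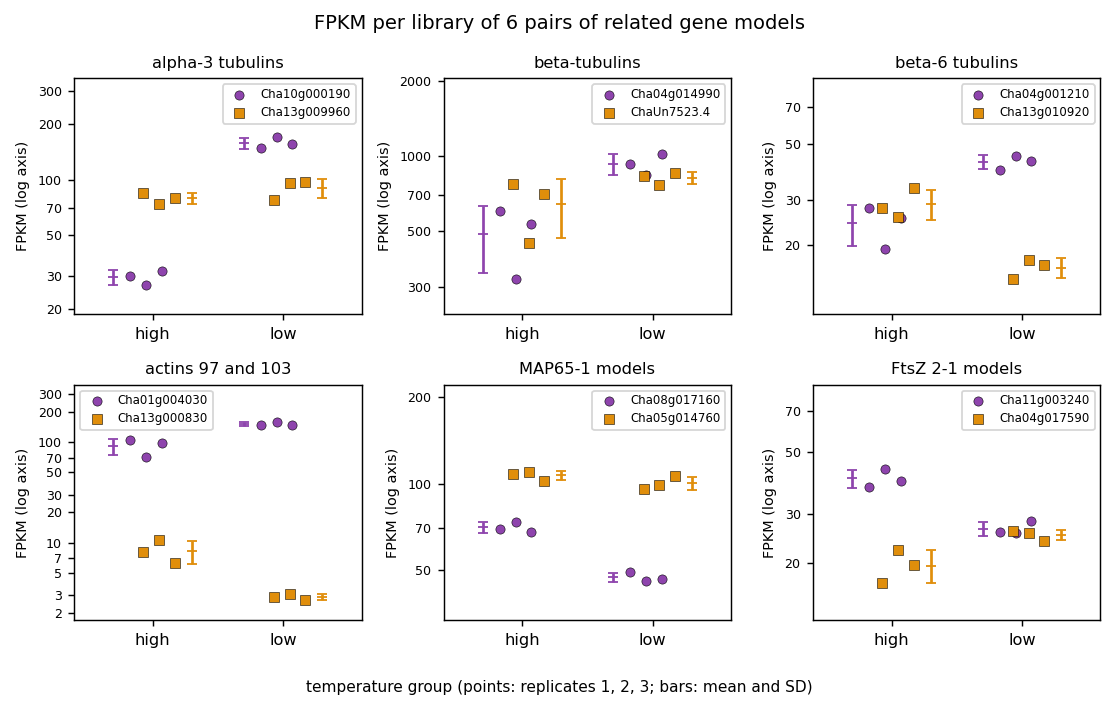
FPKM (log axis) in each library for 6 pairs of related gene models, with high temperature on the left and low temperature on the right of each panel; points are replicates 1 to 3 and bars show the mean and SD. Cha10g000190 lies below its partner at high and above it at low temperature, and the beta-6 tubulins and the actins move apart.

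Gamma-tubulin, which starts new microtubules, had 2 tested genes and no call (edgeR), with none at an unadjusted p under 0.05 and none by DESeq2 or limma. The more abundant, Cha02g001020, had 24.6, 28.5 and 28.5 FPKM at high and 32.9, 26.4 and 27.8 FPKM at low temperature (log2 change 0.09 ± 0.14 SE, adjusted p = 0.721). The FtsZ genes, named as FtsZ 2-1 of the chloroplast division ring, were both tested and had opposite signs. Cha11g003240 (sequence 11, 38586510 to 38592862, minus strand) had 37.5, 43.4 and 39.4 FPKM at high and 25.8, 25.6 and 28.3 FPKM at low temperature. It was 1.52-fold lower (log2 change -0.61 ± 0.13 SE, adjusted p = 0.0039), with separated groups, and the call held whichever library was left out. Cha04g017590, a model of 654 bases where the other has 1368, had 17.03, 22.2 and 19.6 FPKM at high and 26.1, 25.6 and 23.97 FPKM at low temperature and was not called (log2 change 0.35 ± 0.17 SE, adjusted p = 0.172). The ratio of Cha11g003240 to Cha04g017590 was 2.20, 1.96 and 2.01 at high and 0.988, 1.00 and 1.18 at low temperature. The domain search also took Cha04g021560, named as sucrose synthase 6, which had at most 1.00 FPKM in any library and was not called (log2 change 0.52 ± 0.59 SE, adjusted p = 0.589).

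Microtubule-associated proteins, which bundle, cap, sever or organise microtubules, had 0 higher and 9 lower of 35 tested members (25.7% lower), a median log2 change of -0.28 and 27 changes below 0. Over all tested gene models 9.27% were higher and 9.65% lower, and the same background applies to the small classes below. At an unadjusted p under 0.05 the edgeR test gave 0 higher and 13 lower, DESeq2 at an adjusted p gave 0 and 9, and limma on log2(FPKM + 1) gave 0 and 4. Without low-temperature replicate 2 the calls were 0 higher and 3 lower, without low-temperature replicate 3 they were 0 and 4, and without high-temperature replicate 2 they were 1 and 10. The summed level of the class was 691, 732 and 689 FPKM at high and 603, 587 and 593 FPKM at low temperature, with no overlap. The ratio of the group means was 0.844, and 0.861 without high-temperature replicate 2.

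MAP65 proteins cross-link microtubules into bundles, and 3 of their 8 tested genes fell, with no gene higher by edgeR, DESeq2 or limma or at an unadjusted p under 0.05. Cha08g017160, a MAP65-1 gene on sequence 8 (143834176 to 143842339, plus strand), had 69.8, 73.7 and 68.1 FPKM at high and 49.2, 45.9 and 46.6 FPKM at low temperature. The spread within each group was small beside the distance between them, and the gene was 1.504-fold lower (log2 change -0.59 ± 0.13 SE, adjusted p = 0.0033) in a call that held whichever library was left out. The other MAP65-1 gene, Cha05g014760, was the most abundant of all microtubule-associated genes, at 108.3, 110.2 and 102.5 FPKM at high and 96.3, 98.7 and 106 FPKM at low temperature. It was not called (log2 change -0.10 ± 0.13 SE, adjusted p = 0.64). The ratio of Cha08g017160 to Cha05g014760 was 0.645, 0.669 and 0.665 at high and 0.511, 0.465 and 0.438 at low temperature. Cha12g011730, a MAP65-6 gene, fell from a mean of 39.0 to 29.1 FPKM (adjusted p = 0.0254), and Cha08g003060, named for MAP65-3, which in Arabidopsis works in the phragmoplast, fell from 38.6 to 28.1 FPKM (adjusted p = 0.0246). Both of these calls were lost without low-temperature replicate 2 (adjusted p = 0.1002 and 0.1521) or low-temperature replicate 3 (adjusted p = 0.127 and 0.090), and that of Cha12g011730 also without high-temperature replicate 3 (adjusted p = 0.064). Without low-temperature replicate 2 or 3 the class kept 1 call.

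MAP70 proteins, a plant family that lines microtubules and in Arabidopsis takes part in patterning secondary walls, had 4 of 7 tested genes lower and a median log2 change of -0.55. All 7 changes were below 0. The most abundant, a MAP70-1 gene (Cha06g014600), had 29.9, 28.6 and 31.1 FPKM at high and 23.7, 24.9 and 23.8 FPKM at low temperature, with separated groups, and was not called (log2 change -0.32 ± 0.12 SE, adjusted p = 0.083). Cha12g010880, also named MAP70-1 (sequence 12, 100465718 to 100472670), had 14.2, 13.3 and 13.3 FPKM at high and 10.7, 9.30 and 7.75 FPKM at low temperature (1.48-fold lower, log2 change -0.57 ± 0.16 SE, adjusted p = 0.0191). Cha13g002330, a MAP70-2 gene, had a mean of 13.5 FPKM at high and 9.30 FPKM at low temperature (adjusted p = 0.0222). Another gene named MAP70-1, ChaUn24304.2, had 9.04, 4.74 and 3.78 FPKM at high and 2.28, 2.98 and 3.29 FPKM at low temperature. High-temperature replicate 1 stood far above the other libraries of its group, and without it the log2 change went from -1.04 to -0.59 (adjusted p = 0.0254 with and 0.203 without it). The MAP70-5 gene Cha07g015320 had 18, 19 and 24 counts at high and 0, 4 and 8 counts at low temperature, and its log2 change of -2.30 ± 0.75 SE (adjusted p = 0.0392) rests on these few reads. Each of the 4 MAP70 calls was lost on leaving out at least 1 library. Without low-temperature replicate 2 no MAP70 gene was called, and 1 was without high-temperature replicate 1, low-temperature replicate 1 or low-temperature replicate 3 and 2 without high-temperature replicate 3. Without high-temperature replicate 2 there were 5, Cha06g014600 among them (adjusted p = 0.0399).

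TPX2 assembles spindle microtubules, and 1 of its 2 tested genes fell. Cha08g010440 (sequence 8, 106840984 to 106846502, plus strand) had 37.7, 41.6 and 39.7 FPKM at high and 30.3, 24.0 and 22.0 FPKM at low temperature. It was 1.57-fold lower (log2 change -0.65 ± 0.14 SE, adjusted p = 0.0036), with no overlap, and the call held whichever library was left out. The second, Cha12g002410, had means of 9.99 FPKM at high and 9.82 FPKM at low temperature (log2 change -0.04, adjusted p = 0.913). Katanin severs microtubules through its p60 ATPase, which the p80 subunit directs. Cha07g003160, a p60 A-like 2 gene (sequence 7, 23320487 to 23333308, minus strand), had 12.9, 17.8 and 15.1 FPKM at high and 8.39, 9.95 and 9.18 FPKM at low temperature and was 1.68-fold lower (log2 change -0.75 ± 0.18 SE, adjusted p = 0.0072), again in every leave-out. The other 5 tested katanin genes were not called, among them the more abundant p80 gene Cha07g005580 with means of 27.2 ± 2.14 FPKM at high and 25.5 ± 1.61 FPKM at low temperature (SD; edgeR adjusted p = 0.624; log2 change -0.10, and -0.03 without high-temperature replicate 2). The p80 gene Cha07g012060 passed the threshold as higher on leaving out high-temperature replicate 2 (adjusted p = 0.0390, against 0.189 over all libraries).

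The 12 remaining tested genes for microtubule-associated proteins had no call by edgeR, DESeq2 or limma, and 1 was lower at an unadjusted p under 0.05. The most abundant, Cha15g004640, is named for SPIRAL2, which in Arabidopsis keeps cells from twisting as they elongate. It had 53.0, 43.1 and 54.1 FPKM at high and 54.9, 58.7 and 59.9 FPKM at low temperature (log2 change 0.20 ± 0.13 SE, adjusted p = 0.317; log2 change 0.11 without high-temperature replicate 2). The lower one was Cha03g017160, named for EB1C of the EB1 family, which rides on growing microtubule ends, with 43.9, 46.3 and 42.6 FPKM at high and 39.0, 32.5 and 31.1 FPKM at low temperature (adjusted p = 0.062, and 0.0332 without low-temperature replicate 1).

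Actins, the subunits of the actin filament, had 1 higher and 1 lower of 7 tested members by edgeR, and limma gave 1 and 1. DESeq2 and an unadjusted edgeR p under 0.05 each gave 4 higher and 1 lower. The edgeR calls are 14.3% in each direction, beside 9.27% higher and 9.65% lower over all tested gene models. The median log2 change was 0.35, and 6 of the 7 changes were above 0. Most actin RNA came from a pair of Actin-7 genes on sequence 1 that are next to each other among the gene models, 147942 bases apart and on opposite strands. Cha01g011440 (117538514 to 117539963, plus strand) had 659, 508 and 622 FPKM at high and 714, 811 and 772 FPKM at low temperature (log2 change 0.35 ± 0.16 SE, adjusted p = 0.137). Its neighbour Cha01g011430 had 680, 521 and 595 FPKM at high and 601, 709 and 709 FPKM at low temperature (log2 change 0.16 ± 0.16 SE, adjusted p = 0.537). Neither was called by edgeR, and only the second gene's groups overlapped. DESeq2 called Cha01g011440 higher (adjusted p = 0.0375), as it did Cha04g020430 and the further Actin-7 gene Cha13g013660 (adjusted p = 0.0244 and 0.0473; 0.054 and 0.066 by edgeR). Without high-temperature replicate 2 the log2 change of Cha01g011430 was 0.08.

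The actins called by edgeR were a less abundant pair. Cha01g004030, named Actin-97 (sequence 1, 22985387 to 22987559, minus strand), had 104, 71.4 and 97.3 FPKM at high and 148, 159 and 147 FPKM at low temperature. It was 1.66-fold higher (log2 change 0.73 ± 0.15 SE, adjusted p = 0.0023), with separated groups. Its share of all actin FPKM was 5.97%, 5.30% and 6.19% at high and 8.43%, 7.90% and 7.57% at low temperature. Cha13g000830, named Actin-103 (sequence 13, 12001133 to 12012462, minus strand), had 8.08, 10.5 and 6.26 FPKM at high and 2.88, 3.08 and 2.68 FPKM at low temperature, from 121, 181 and 97 counts against 44, 49 and 42. The low-temperature libraries lay close together below all high-temperature libraries, and the gene was 2.90-fold lower (log2 change -1.53 ± 0.27 SE, adjusted p = 0.00072). Both calls held whichever library was left out. Without low-temperature replicate 1 edgeR called 3 actins higher, and without high-temperature replicate 2 it called 2.

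Actin-related proteins share the actin fold, and most work in chromatin remodelling or in starting branched filaments. Of 9 tested genes 1 rose and 1 fell, which is 11.1% in each direction. This is near the background of 9.27% higher and 9.65% lower, so the count is no result about the class. Cha06g012100, named for ARP6, which in Arabidopsis belongs to the SWR1 chromatin-remodelling complex, had 8.29, 4.94 and 7.89 FPKM at high and 12.1, 11.1 and 10.2 FPKM at low temperature. It was 1.57-fold higher (log2 change 0.65 ± 0.21 SE, adjusted p = 0.0392), with high-temperature replicate 2 the lowest library, and on leaving out 1 library the call was kept only without high-temperature replicate 1 (adjusted p up to 0.124 otherwise, without low-temperature replicate 1). Cha08g018180, named for ARP8, a plant protein that joins an F-box to an actin-like domain, had 11.6, 14.2 and 9.29 FPKM at high and 7.32, 8.06 and 6.64 FPKM at low temperature. It was 1.61-fold lower (log2 change -0.69 ± 0.19 SE, adjusted p = 0.0163), and the call was lost without high-temperature replicate 2 (adjusted p = 0.052), low-temperature replicate 1 (0.054) or low-temperature replicate 3 (0.091). The most abundant, the ARP4 gene Cha03g011970, had means of 48.3 ± 2.26 FPKM at high and 44.5 ± 4.38 FPKM at low temperature (SD; edgeR adjusted p = 0.538).

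Actin-binding proteins gave 0 higher and 1 lower of 53 tested members, 1.89% called, beside 18.9% of all tested gene models. At an unadjusted p under 0.05 there were 1 higher and 7 lower, and DESeq2 and limma each gave 0 higher and 1 lower. Without high-temperature replicate 2 there were 0 higher and 6 lower, and without high-temperature replicate 1 there were 0 and 3. Without low-temperature replicate 1 there were 1 and 2, and without either of the other low-temperature libraries there were none. The gene that fell was ChaUn4909.5, named for villin-1, of a family that bundles actin filaments (unplaced sequence 27432, 79587 to 94974, plus strand). It had 16.4, 21.5 and 16.3 FPKM at high and 13.2, 11.1 and 11.5 FPKM at low temperature and was 1.53-fold lower (log2 change -0.61 ± 0.15 SE, adjusted p = 0.0086). The groups did not overlap, and the call was lost without low-temperature replicate 2 (adjusted p = 0.064) or replicate 3 (adjusted p = 0.056). The most abundant villin, Cha10g001140 (villin-2), had means of 25.0 FPKM at high and 26.2 FPKM at low temperature (adjusted p = 0.802; log2 change 0.06, and 0.18 without high-temperature replicate 2).

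Actin-depolymerizing factors, which sever filaments and speed their turnover, had no call among 11 tested genes by edgeR, DESeq2 or limma, with 0 higher and 2 lower at an unadjusted p under 0.05 and 1 lower without high-temperature replicate 1 or 2. Cha10g005780 ranked 48 among all gene models by mean FPKM. It had 2098, 1262 and 2045 FPKM at high and 2245, 2153 and 2201 FPKM at low temperature (log2 change 0.28 ± 0.18 SE, adjusted p = 0.315). High-temperature replicate 2 stood far below the other 5 libraries, and without it the log2 change was 0.09. Profilins, which deliver actin subunits to growing filament ends, had no call among 7 tested genes by the same tools and 0 higher and 1 lower at an unadjusted p under 0.05, but 3 lower without high-temperature replicate 2. The leading profilin-1 gene, Cha14g010650, had 699, 606 and 637 FPKM at high and 592, 703 and 651 FPKM at low temperature (log2 change -0.01 ± 0.14 SE, adjusted p = 0.981). The profilin-2 gene Cha06g014020 had 463, 378 and 420 FPKM at high and 355, 348 and 309 FPKM at low temperature, without overlap (log2 change -0.33 ± 0.13 SE, adjusted p = 0.09995, and 0.0118 without high-temperature replicate 2). Formins start and elongate filaments, and none of their 31 tested genes was called by edgeR, DESeq2 or limma, with 1 higher and 3 lower at an unadjusted p under 0.05. Leaving out high-temperature replicate 1 or 2 gave 1 formin lower, and leaving out low-temperature replicate 1 gave 1 higher and 1 lower. The most abundant formin, Cha09g009770, had 36.7, 37.1 and 47.7 FPKM at high and 50.4, 45.2 and 46.4 FPKM at low temperature (log2 change 0.22 ± 0.14 SE, adjusted p = 0.300).

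Summing FPKM over a class gives the size of each transcript pool, and ratios between pools within a library do not depend on how that library was scaled. Alpha-tubulin summed to 2909, 1931 and 2646 FPKM at high and 2503, 2711 and 2843 FPKM at low temperature, and the groups overlapped. Beta-tubulin summed to 2904, 1790 and 2695 FPKM at high and 3543, 3456 and 3822 FPKM at low temperature, with no overlap. The beta-tubulin mean was 1.46-fold higher at low temperature, and 1.29-fold without high-temperature replicate 2. The ratio of alpha- to beta-tubulin FPKM was 1.00, 1.08 and 0.982 at high and 0.706, 0.785 and 0.744 at low temperature, so every cool library lay below every warm one. The ratio in high-temperature replicate 2 was close to that of the other warm libraries, although its tubulin sums were the lowest.

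Actin summed to 1741, 1345 and 1571 FPKM at high and 1760, 2008 and 1941 FPKM at low temperature. The lowest cool library was just above the highest warm one. Profilin FPKM per actin FPKM was 1.442, 1.395 and 1.49 at high and 1.22, 1.05 and 1.07 at low temperature, again without overlap. Actin-depolymerizing factor FPKM per actin FPKM was 1.93, 1.77 and 2.07 at high and 1.94, 1.64 and 1.75 at low temperature, and the groups overlapped. For every 100 FPKM of alpha- and beta-tubulin there were 11.9, 19.7 and 12.9 FPKM of microtubule-associated proteins at high and 9.97, 9.52 and 8.90 FPKM at low temperature. High-temperature replicate 2 was the highest here, and the other warm libraries also lay above all cool ones. These ratios were chosen after the class sums were seen and carry no test.

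**Figure D3:**
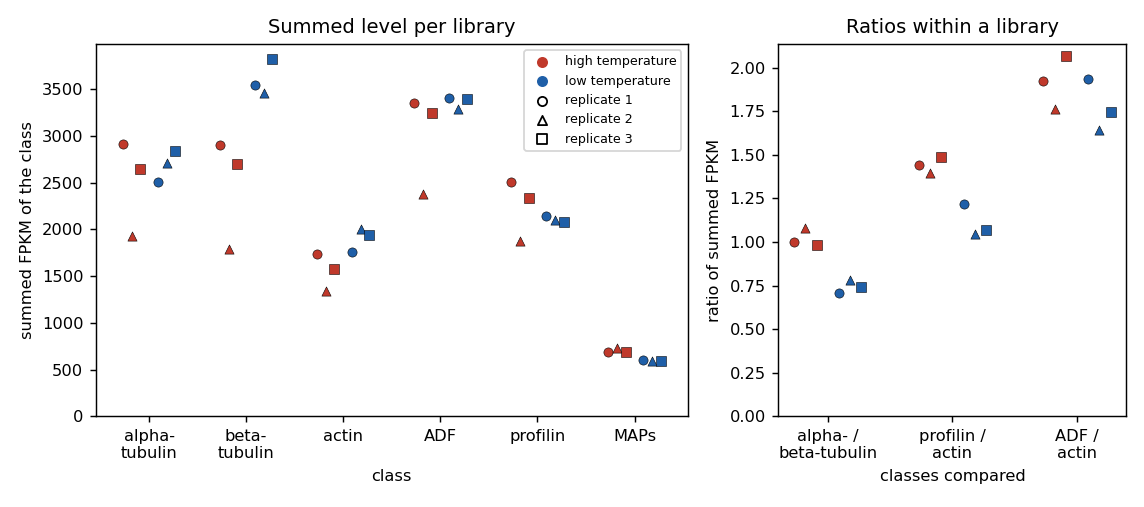
Left, summed FPKM of 6 classes in each library; right, ratios of summed FPKM within each library; colour marks the temperature group and shape the replicate. High-temperature replicate 2 (red triangle) is the lowest point for alpha-tubulin, beta-tubulin, actin, actin-depolymerizing factor and profilin, while its ratios of alpha- to beta-tubulin and of profilin to actin lie near those of its group.

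The calls are also given by level, beside 18.9% called over all tested gene models of any level. No background was taken within each level, and level goes with class. Among the 25 tested members with a mean over 100 FPKM, 4 were called higher and 0 lower, all of them beta-tubulins except Actin-97. Between 10 and 100 FPKM 3 of 53 were higher and 10 lower, and between 1 and 10 FPKM 2 of 44 were higher and 3 lower. Of the 8 tested members under 1 FPKM, 0 were higher and 1 was lower. The median log2 change was 0.10 in the most abundant set and -0.10, -0.18 and -0.06 in the others, in order of falling level. Whether the sets differ was not tested.

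**Figure D4:**
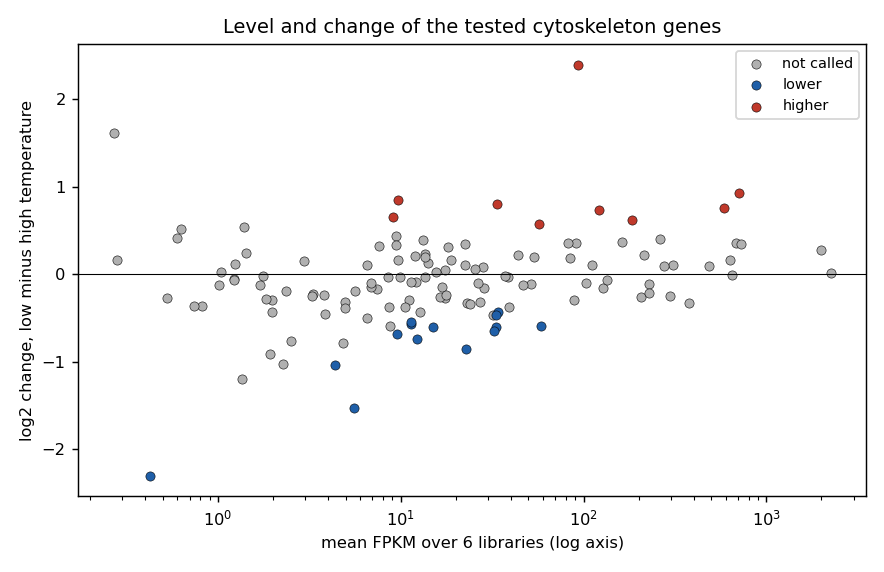
Log2 change (low minus high temperature, edgeR fit) against mean FPKM over the 6 libraries (log axis) for the 130 tested members, coloured by call. The called members above 100 FPKM all lie above 0, and Cha10g000190 stands at the top with a change of 2.40.

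In the genome 23 members are next to another member among the gene models, in 12 adjoining pairs, 8 of which carry the same protein name. The pair of Actin-7 genes is one. A run of 3 formin-20 models adjoin on sequence 3, with gaps of 511 and 116 bases, and MAP70-1 models ChaUn24304.1 and ChaUn24304.2 lie 260 bases apart on the same strand of an unplaced sequence. Models this close with the same name may be pieces of 1 gene. ChaUn24304.1 had means of 4.48 FPKM at high and 3.27 FPKM at low temperature and was not called (log2 change -0.45, adjusted p = 0.553), beside the call of ChaUn24304.2. A beta-2 tubulin gene has an actin-depolymerizing factor 7 model as its neighbour at each of 2 places. On sequence 14 Cha14g007960 lies 29906 bases from Cha14g007950, and on unplaced sequence 28681 ChaUn7523.4 lies 13936 bases from ChaUn7523.5. Both of these depolymerizing factor models had too few counts to be tested.

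Other cytoskeleton genes outside the rule were taken by protein name as context. Of 344 such gene models 272 were tested, and 8 were higher and 70 lower, with a median log2 change of -0.27. Over all tested gene models 9.27% were higher and 9.65% lower, a background that applies to each list below. Without low-temperature replicate 2 or without low-temperature replicate 3 there were 5 higher and 37 lower. WVD2 proteins, which bundle microtubules in Arabidopsis, had 0 higher and 12 lower of 15 tested genes (median log2 change -0.67; DESeq2 and limma each 0 and 11; no gene higher at an unadjusted p under 0.05). ChaUn13343.1, the most abundant of them, had 88.4, 96.3 and 87.0 FPKM at high and 69.7, 49.8 and 52.5 FPKM at low temperature (adjusted p = 0.0037). Cha06g017010 changed most, at 18.1, 20.2 and 16.2 FPKM against 4.86, 5.28 and 2.77 FPKM (log2 change -2.09 ± 0.24 SE). The WVD2 count was 10 to 12 whichever library was left out.

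Kinesins, the motors that walk on microtubules, had 0 higher and 31 lower of 97 tested genes, with 0 higher and 43 lower at an unadjusted p under 0.05 and 0 and 31 by DESeq2 and 0 and 16 by limma. The kinesin count was 15 lower without low-temperature replicate 2 and 16 lower without low-temperature replicate 3. The mitotic kinesin KIN-5D gene Cha11g005550 had 35.4, 46.5 and 40.9 FPKM at high and 25.0, 24.5 and 21.2 FPKM at low temperature (log2 change -0.81 ± 0.14 SE, adjusted p = 0.00068). Tubulin-folding cofactors and prefoldin, which help tubulin fold and pair, had 0 higher and 4 lower of 7 (0 and 5 at an unadjusted p under 0.05, 0 and 4 by DESeq2, 0 and 3 by limma), and the count went to 0 without low-temperature replicate 2, 1 without low-temperature replicate 3 and 2 without high-temperature replicate 3 or low-temperature replicate 1. The cofactor A gene ChaUn7387.2 had 137, 124 and 114 FPKM at high and 94.7, 96.1 and 87.7 FPKM at low temperature (adjusted p = 0.033), the opposite direction to the called tubulins other than Cha13g010920. IQ-DOMAIN proteins, calmodulin-binding proteins many of which sit on microtubules, had 0 higher and 7 lower of 25 (1 higher and 9 lower at an unadjusted p under 0.05; DESeq2 1 and 6, limma 0 and 6), with 4 lower without low-temperature replicate 2.

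Cellulose synthase complex genes were taken by the names of catalytic subunits, which move along cortical microtubules, and of cellulose synthase interactive proteins. They were the largest group of rises outside the rule, with 4 higher and 0 lower of 12 tested genes. This count held by edgeR, by DESeq2 and at an unadjusted p under 0.05, and limma gave 3 and 0. Leaving out high-temperature replicate 1 or 3 or low-temperature replicate 2 or 3 left 2. Cha02g006180, named for subunit A3, which in Arabidopsis makes primary walls, had 96.9, 84.5 and 92.9 FPKM at high and 116, 184 and 157 FPKM at low temperature (log2 change 0.73 ± 0.16 SE, adjusted p = 0.0034). The cool libraries all lay above the warm ones and spread widely among themselves. The models named for A4, A7 and A8, the secondary-wall subunits of Arabidopsis, were not called. Myosins, the motors of actin filaments, had 0 higher and 7 lower of 25 tested genes by edgeR, 0 and 6 by DESeq2 and 0 and 0 by limma, with 1 higher and 9 lower at an unadjusted p under 0.05. Without low-temperature replicate 2 there were 3 myosins lower and without low-temperature replicate 3 there was 1. ROP GTPases, switches that signal to the cytoskeleton, had 2 higher and 1 lower of 14, the WAVE complex 1 and 3 of 16, the ARP2/3 complex 0 and 1 of 7, augmin 0 and 2 of 22, gamma-tubulin complex components 1 and 0 of 7, and fimbrins 0 and 1 of 8. At an unadjusted p under 0.05 the last 4 of these gave 0 and 2, 0 and 3, 3 and 0, and 0 and 3, and DESeq2 gave the same counts as edgeR for each. The counts from ROP GTPases to fimbrins rest on few genes each, and the background is 9.27% higher and 9.65% lower. Whether any of these lists differs from the background was not tested. The 2 CLIP-associated, 3 TONNEAU, 5 SPIRAL1, 3 actin-interacting and 1 tubulin tyrosine ligase genes tested had no call by edgeR, DESeq2 or limma and none at an unadjusted p under 0.05, while 1 of 3 RIC effectors was lower.

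**Figure D5:**
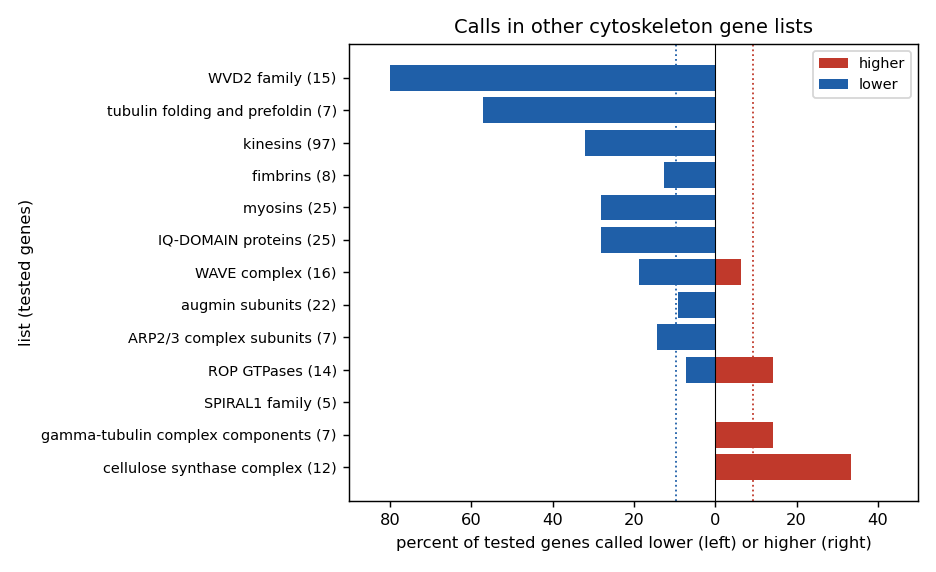
Percent of tested genes called higher (right, red) or lower (left, blue) in the other cytoskeleton lists with at least 5 tested genes, whose number is in brackets; dotted lines mark the background of 9.27% higher and 9.65% lower. WVD2 genes have the longest bar to the left, and cellulose synthase complex genes the longest to the right.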

How the data were processed

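Tables of raw read counts and of FPKM, over 40118 gene models each, were deposited by the authors. The submitters' processing notes name HISAT2 2.0.5 and featureCounts 1.5.0-p3, besides CASAVA 1.8.2, fastp, R 4.1.0 and DESeq2 1.20.0, without settings. Genome build and strandedness of the counting: not given in the sources used here. Whether the counting told reads of a gene and of an overlapping antisense gene apart is therefore not known. Names and coordinates are the deposited ones, and a sequence number is that of the assembly sequence. The deposited FPKM values equal count over coding length and a divisor per library, which was 1.13 times the library total for high-temperature replicate 2 and 0.977 to 1.01 times elsewhere, so they carry a scaling beyond depth.

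The count test was run in edgeR 4.0.16 under R 4.3.3 (filterByExpr with a minimum count of 10, TMM scaling, robust quasi-likelihood F test, group as the only term, all 6 libraries). P-values were Benjamini-Hochberg adjusted over all tested gene models, the threshold was 0.05, and standard errors were derived from each log2 change with its F statistic. CPM are TMM-scaled. Intervals and floors would cover counting error only; a count of 3 is 0.180 to 0.204 CPM. The members and gene lists were chosen with earlier results of these data known. In each class the most abundant tested member and the called members with the smallest p in each direction are named, with the 5 largest called changes in each direction; further called members, pairs, untested and context genes were picked after their values were seen. Alternatives were other scalings and filters, leaving out each library, a replicate block, limma 3.58.1 on log2 FPKM, DESeq2 1.42.0 and an adjusted p under 0.01. On simulated counts for 26767 gene models in this comparison, 30% of 50 genes changed 1.5-fold, 66% at 2-fold, 98% at 4-fold and 100% at 8-fold were recovered, and 12 of 26567 unchanged genes were called. The simulation changed far fewer genes than the 5062 called in the data and left out those with the lowest counts. These rates therefore need not hold for the real comparison.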

Additional observations from a re-analysis of the deposited data

How the results depend on the processing

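Against 5062 gene models, 23 members and 78 other cytoskeleton genes called, limma on unfiltered log2(FPKM + 1) gave 2867, 11 and 30 and an adjusted p under 0.01 gave 2423, 13 and 39. Filtered limma gave 15 members and 49 other genes with a pseudocount of 1 and 14 and 47 with 0.1. Leaving out 1 library gave 2606 to 5621 gene models, 12 to 30 members and 42 to 74 other genes. The 9 members higher became 12 under DESeq2 (with 14 lower), 5 under unfiltered limma and 5 to 10 on leaving out 1 library. The 14 lower became 8, 8 and 6 under limma (pseudocount 1, 0.1 and unfiltered), 7 at an adjusted p under 0.01 and 7 to 20 on leaving out 1 library. The members' median log2 change of -0.097 was -0.139 with library totals only and -0.086 to -0.062 on leaving out 1 library. Signs reversed for 4 named genes, none of them called: ChaUn14670.3 (-0.010 with library totals, -0.138 to 0.148 on leaving out 1 library), Cha02g001020 (-0.011 to 0.155), Cha10g001140 (-0.0054 to 0.185) and Cha14g010650 (0.00049 with DESeq2 size factors in edgeR, 0.0030 with DESeq2, 0.0019 with limma at each pseudocount and filter, -0.063 to 0.058 on leaving out 1 library). The cause of these differences was not tested. Of 18 called genes among the 32 named by the rule, 11 kept their call in every setting. Deviations of same-numbered libraries correlated at -0.011, 0.040 and -0.0094. With 3 libraries in each group this cannot decide whether replicate numbers pair the samples, and the labels do not say. With the replicate number as a block 4805 gene models and the same 23 members were called. At this depth genes under about 1 FPKM rest on few reads.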
